A study of Mus musculus with 6 samples.

Results

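The genes of ATP-dependent chromatin remodelling were followed in morula-like aggregates exposed to perfluorooctanoic acid (PFOA), a persistent fluorinated surfactant. Members were taken by symbol: rows whose name begins with SMARC or INO80, or with ARID, CHD or BRD followed by a digit. The rule found 47 of the 18388 genes in the table. Of these, 34 encode subunits of remodelling complexes or stand-alone remodelling ATPases. The other 13 share only a name or a domain with them: 7 ARID-domain proteins of other complexes (Arid3a, Arid3b, Arid3c, Arid4a, Arid4b, Arid5a, Arid5b), bromodomain proteins such as Brd1, Brd2 and Brd3, and the name matches Brd3os and Brd8dc. The label therefore holds for most but not all members, and the 13 are described apart.

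RNA-seq was available from 6 libraries, 3 of aggregates given the vehicle DMSO and 3 of aggregates given PFOA. All were grown from mouse expanded pluripotent stem cells in N2B27LCDM medium and then in an induction medium, and the sources used here give no dose, exposure time or genotype of the line. Nothing in the labels says that the replicates are separate cultures. The p-values therefore rest on the spread among these libraries alone, and that spread may be technical. Values are FPKM, fragments per kilobase of transcript scaled to the library total, so levels can be set side by side between genes. Between 16823 and 16913 genes were above 0 in each library and the depth is unknown. Spearman's rho across genes was 0.989 to 0.991 within groups and 0.988 to 0.991 between them. All 8 pluripotency markers were above 1 FPKM in every library, from Tfcp2l1 at 22.4 to 29.3 up to Dppa5a at 1672 to 2304. Their summed level was 4131 to 4321 in DMSO and 3516 to 3987 in PFOA, but single markers differed in direction. Dppa5a (mean 2239, then 1952), Pou5f1 (979, then 885) and Nanog (277, then 265) were lower without overlap. Tfcp2l1 (23.0, then 26.9) and Esrrb (107, then 112) were higher without overlap. Of all 11876 genes with a mean of at least 1 FPKM, 13.7% were lower and 13.5% higher without overlap. Of the trophectoderm markers 5 of 6 were at or above 1 FPKM throughout (sums of 506 to 577 in DMSO and 489 to 559 in PFOA), with Elf5 at or below 0.1. Of the primitive endoderm markers it was 1 of 5 (3.86 to 4.59, then 4.09 to 4.41), with Sox17 at or below 0.4. Of the fibroblast markers 4 of 6 were at or above 1 FPKM throughout (sums of 12.7 to 15.2, then 11.9 to 12.0), with Lum at or below 0.23. The highest of them, Dcn (mean 7.59, then 6.24), was lower without overlap. Of the neural markers 3 of 4 were at or above 1 FPKM throughout (31.4 to 31.9, then 28.4 to 29.7), with Pax6 at or below 0.41. The pluripotent, fibroblast and neural sums did not overlap between groups in FPKM as deposited. The FPKM total of a library was also lower in PFOA (585739 to 630644) than in DMSO (641975 to 657239). The markers were not rescaled to that total, so these differences may depend on the scaling. The neural sum is mostly Tubb3 (27.0, then 24.1), while Nes (2.85, then 3.21) was higher. The part of these markers in the results was not tested. Fewer cells of a type and less RNA per cell cannot be told apart in such bulk samples.

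Remodellers use ATP hydrolysis to slide, evict or exchange nucleosomes, and each family is built around an ATPase of the SNF2 type. SWI/SNF complexes open chromatin at enhancers and promoters, ISWI spaces nucleosomes, CHD proteins act alone or in complexes such as NuRD, and INO80 shifts nucleosomes and acts on those that carry H2A.Z. Embryonic stem cells assemble a particular SWI/SNF form, esBAF, around Smarca4, Smarcc1 and Arid1a, and rely on Chd1, Chd4 and the INO80 complex to keep an undifferentiated state.

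The start-site regions of 4 remodeller genes are given because 3 of them (Chd8, Smarca4, Ino80b) are among the members with an unadjusted p under 0.05 in the comparison described further on, and the other, Ino80e, holds the E-box CACGTG, the sequence that MYC and MAX bind, which bears on the MYC theme of the series title. Each runs 5′ to 3′ from 250 bases before to 50 after the start, from RefSeq on GRCm38.p6, whereas the expression table was made on GRCm39. Capitals mark, on either strand, CACGTG (E-box), CCAAT (the NF-Y box), GGGCGG (the GC box of SP factors) and CCGGAAG (ETS), and no matches overlap within these windows.
Chd8 (chr14:52257711-52258010, minus strand): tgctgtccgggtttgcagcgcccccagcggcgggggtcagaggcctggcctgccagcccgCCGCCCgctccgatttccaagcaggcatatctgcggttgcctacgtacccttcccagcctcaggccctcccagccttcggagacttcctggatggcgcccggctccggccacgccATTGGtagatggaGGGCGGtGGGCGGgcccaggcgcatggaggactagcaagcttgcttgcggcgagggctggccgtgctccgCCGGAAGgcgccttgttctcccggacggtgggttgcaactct
Smarca4 (chr9:21615919-21616218, plus strand): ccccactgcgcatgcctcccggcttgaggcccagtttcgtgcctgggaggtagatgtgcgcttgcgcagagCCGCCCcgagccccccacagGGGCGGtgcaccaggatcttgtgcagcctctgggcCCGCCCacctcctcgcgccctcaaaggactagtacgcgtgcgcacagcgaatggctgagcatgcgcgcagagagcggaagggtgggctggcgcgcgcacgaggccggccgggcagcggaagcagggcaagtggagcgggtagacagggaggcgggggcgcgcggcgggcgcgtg
Ino80b (chr6:83125070-83125369, minus strand): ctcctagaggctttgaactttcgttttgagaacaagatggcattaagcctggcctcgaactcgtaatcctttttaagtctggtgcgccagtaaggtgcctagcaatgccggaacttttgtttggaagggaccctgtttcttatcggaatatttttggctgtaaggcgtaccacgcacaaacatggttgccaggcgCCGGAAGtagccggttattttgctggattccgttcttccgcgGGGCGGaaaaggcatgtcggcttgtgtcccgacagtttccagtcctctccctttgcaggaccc
Ino80e (chr7:126862323-126862622, minus strand): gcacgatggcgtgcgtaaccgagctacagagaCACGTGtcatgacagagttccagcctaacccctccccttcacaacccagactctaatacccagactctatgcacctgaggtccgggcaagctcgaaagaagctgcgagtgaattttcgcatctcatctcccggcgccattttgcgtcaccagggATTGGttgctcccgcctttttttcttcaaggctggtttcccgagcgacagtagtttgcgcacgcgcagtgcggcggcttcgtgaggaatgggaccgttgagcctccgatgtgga
RefSeq windows were found for 34 of the 47 members, 44 windows in all. The first listed window of a gene is printed, except that the Ino80e window was chosen because it holds the E-box. A GC box lies in another window of Ino80e, which is not shown. The GC box was in the windows of 30 of the 34 genes (88.2%), against 38.2% of all 27025 genes with a window. The ETS letters were in 7 of 34 (20.6%, against 9.93%), CCAAT in 11 of 34 (32.4%, against 41.1%), and the E-box in Ino80e alone (2.94%, against 8.09%). The member windows had a median GC content of 65.7% and 25.5 CpG, against 52.7% and 7 over all windows. A match is a description of letters and not a bound site.

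The catalytic ATPases differed widely in level, and the order of the 17 was led by Chd4, the ATPase of NuRD. Its FPKM was 121, 121 and 129 across DMSO 1 to 3, and 143, 131 and 131 across the PFOA libraries, above 96.2% of all genes in the table. Smarcad1, which helps to restore silent chromatin behind the replication fork, came next at 95.9, 93.3 and 89.4 in DMSO and 91.7, 92.1 and 92.1 in PFOA. The ranges of Chd4 and Smarcad1 did not meet. Smarca4, the ATPase of esBAF, was 79.1, 74.6 and 78.4 in DMSO and 87.0, 82.9 and 83.4 in PFOA. Smarca5, the main ISWI ATPase, was 76.0, 75.9 and 78.4 and then 81.6, 78.4 and 77.7, a range that overlapped that of Smarca4. Of the 16 pairs of neighbours in the order, 8 had overlapping ranges over the 6 libraries.

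Chd8, which binds promoters and β-catenin, stood alone in the middle of the order at 26.1 to 33.3 FPKM, followed by Chd1, an H3K4me3 reader linked to transcribing polymerase, at 20.5 to 24.9. The PFOA 2 and PFOA 3 values of Chd1, 21.47 and 21.52, lay at the top of its DMSO values of 20.5, 21.4 and 21.5, and PFOA 1 alone was set off at 24.9. Smarcal1, a fork-remodelling annealing helicase (15.4, 14.2 and 14.3 in DMSO; 15.5, 15 and 15.8 in PFOA), Chd1l, a remodeller recruited by poly(ADP-ribose) (14.4, 14.9 and 14.3; 15.2, 15.3 and 14.4), Chd2, Ino80 and Chd3 (12.0, 11.5 and 11.9; 13.2, 12.0 and 12.6) formed a run whose neighbours overlapped. Chd6, Chd9 and Chd7 overlapped one another between 5.95 and 9.91 FPKM. Next came Smarca1, the second ISWI ATPase, at 2.22, 2.50 and 2.62 in DMSO and 2.64, 2.24 and 1.77 in PFOA, and Smarca2, the alternative SWI/SNF ATPase, at 1.77, 1.90 and 1.87 and then 1.89, 1.81 and 2.30. Chd5, known for its role in neurons and testis, was lowest at 0.88, 0.79 and 0.77 in DMSO and 0.90, 0.91 and 0.90 in PFOA, under the mean of 1 FPKM needed for testing.

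**Figure D1:**
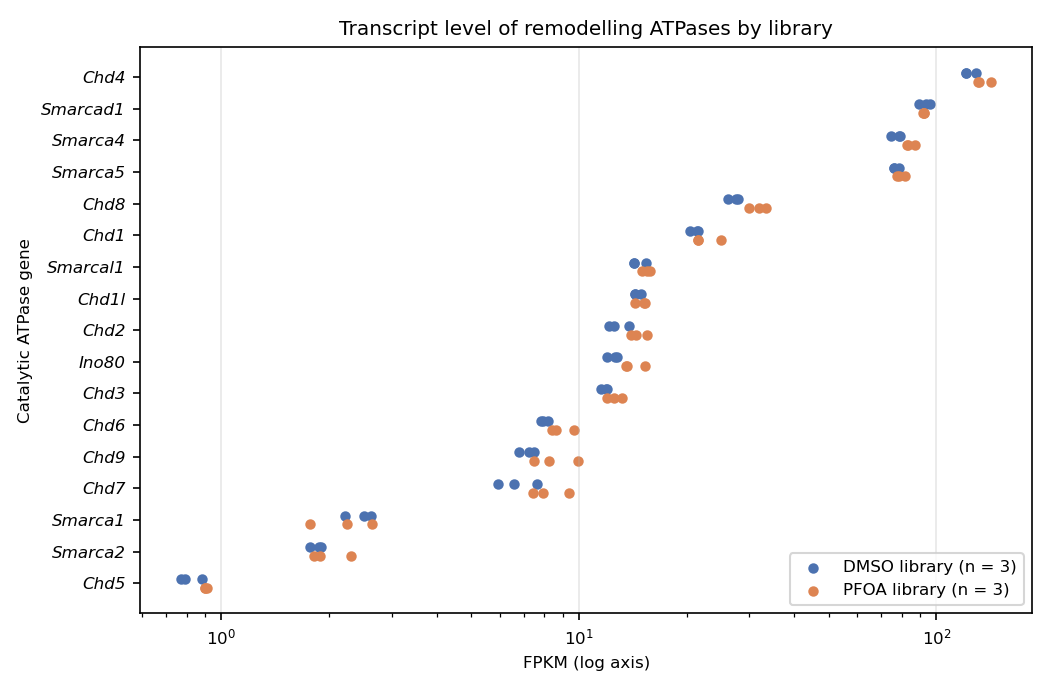
FPKM (log axis) of the 17 ATPase genes in each of the 3 DMSO and 3 PFOA libraries, ordered by the mean over the 6; each point is a library. Chd4 at 121 to 143 is highest and Chd5 at 0.77 to 0.91 lowest, and the spread between genes is far wider than that between groups.

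Among paralogues that take the same place in a complex, a single gene held most of the transcript. The FPKM of Smarca4 was 39.3 to 44.7 times that of Smarca2 in DMSO and 36.2 to 46.0 times in PFOA. Smarca5 was 29.9 to 34.2 times Smarca1 in DMSO and 30.9 to 43.9 times in PFOA. The core scaffold Smarcc1 was 4.93 to 5.80 times Smarcc2 and then 5.29 to 5.90 times. Smarcd1 was 2.12 to 2.21 and then 2.09 to 2.32 times Smarcd2, and 47.8 to 54.4 and then 36.3 to 49.1 times Smarcd3, the form of heart and muscle. Arid1a was 10.1 to 11.2 and then 10.3 to 11.1 times Arid1b, and Chd4 was 10.1 to 10.8 and then 10.4 to 10.98 times Chd3. The groups overlapped in all 7 ratios. The largest difference in the log2 ratio of FPKM + 1 was that of Smarcd1 to Smarcd3 (means of 4.95 for DMSO, SD 0.053, and 4.77 for PFOA, SD 0.15, n = 3 each; difference −0.19, two-sided exact permutation p = 0.2, adjusted over 7 pairs 0.56). The exact p of the other ratios was between 0.2 and 0.6, and 3 against 3 libraries cannot give less than 0.1. Other genes' transcripts hold 43.95% of the 50-nt words of Smarcd3 and 28.2% of those of Smarca5. Both levels are uncertain, since the counting may have divided such reads.

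PFOA was compared with DMSO to ask whether the exposure moved these genes. The test was limma on log2(FPKM + 1) over the 11876 genes with a mean of at least 1 FPKM, Benjamini-Hochberg adjusted, and a fold change is on that scale. Of the 47 members, 43 were tested and 0 passed an adjusted p of 0.05, against 0.00842% of all tested genes (limma; 13 members had an unadjusted p under 0.05). The members left out were Chd5, Arid3c at 0.38 to 0.72 FPKM, Arid5a at 0.92 to 1.06 and Brd8dc at 0.09 to 0.52. At an unadjusted p under 0.05, 12 of the 43 members were higher in PFOA (27.9%, against 8.56% of all tested genes) and 1 was lower (2.33%, against 12.5%). In 13 members each PFOA library was above each DMSO library (30.2%, against 13.5%), and in 1 each was below (13.7% of all). The median log2 fold change of the 43 was 0.072, with 31 above 0 (72.1%), against −0.0065 and 47.6% over all tested genes. Scaling every library to the same FPKM sum moved the median of all genes to 0.074. An unadjusted p under 0.05 then went to 23 higher members (53.5%) and 1 lower (2.33%), against 2508 (21.1%) and 500 (4.21%) of all genes. With quantile normalization it was 14 (32.6%) and 1 (2.33%), against 1362 (11.5%) and 1114 (9.38%). The median half-width of the members' 95% confidence intervals was 0.12.

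**Figure D2:**
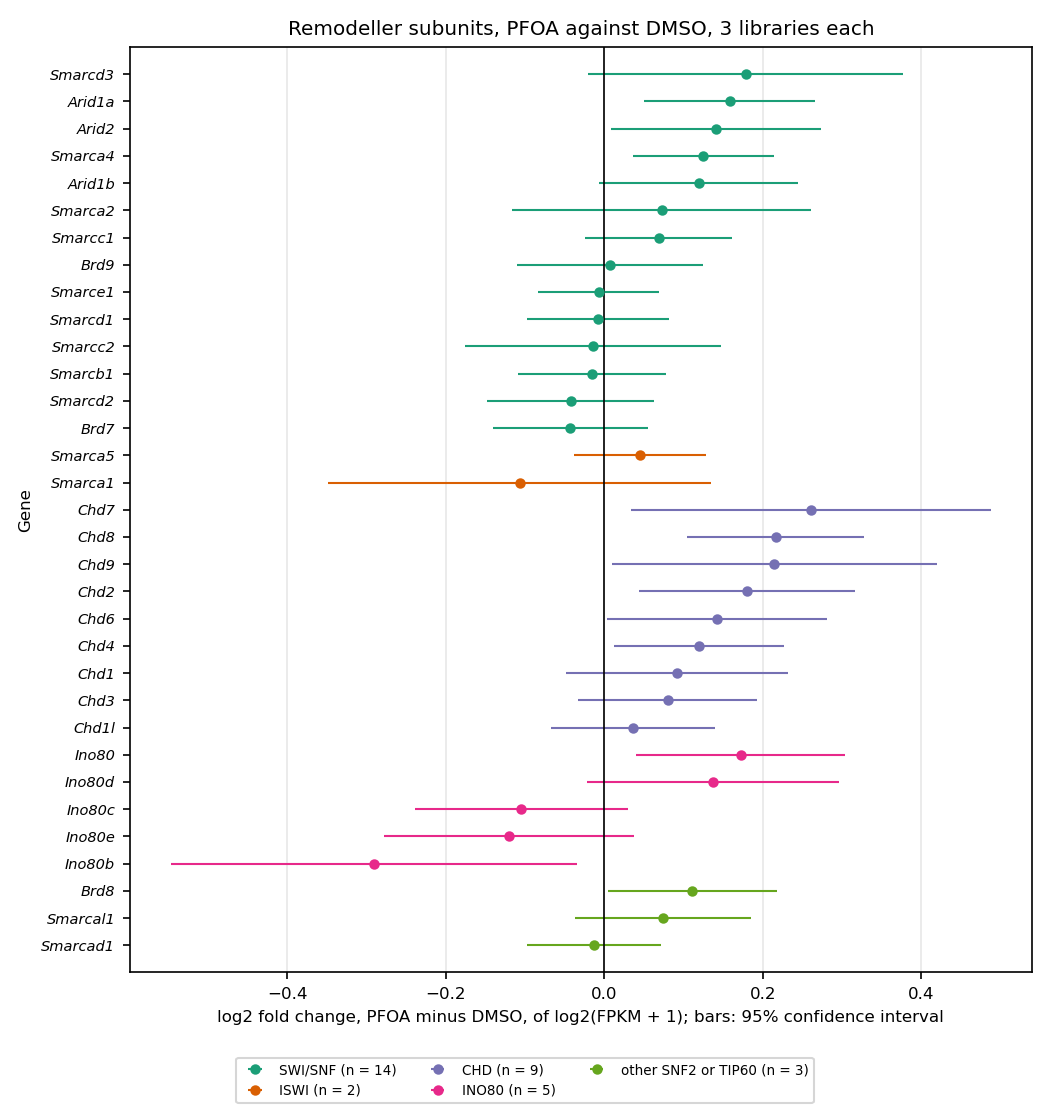
log2 fold change (PFOA minus DMSO, limma on log2(FPKM + 1), 3 libraries each) of the 33 tested remodeller subunits, grouped by complex; points are estimates and bars 95% confidence intervals. All 9 CHD genes lie above 0, while the 5 INO80 genes lie on both sides, from −0.29 for Ino80b to 0.17 for Ino80.

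CHD genes lay on 1 side of 0: 9 of 9 tested were higher in PFOA, 6 with an unadjusted p under 0.05 and 0 with an adjusted p under 0.05, at a median log2 fold change of 0.14. Chd8 was 27.4, 26.1 and 27.9 FPKM in DMSO and 33.3, 31.8 and 29.98 in PFOA. Its transcript is 8509 nt long. Its groups did not overlap, and PFOA 1 was highest (16.8% higher; log2 fold change 0.22, SE 0.049, limma adjusted p = 0.121). Chd7, mutated in CHARGE syndrome, was 5.95, 6.60 and 7.63 in DMSO and 9.40, 7.91 and 7.46 in PFOA. PFOA 3 lay below DMSO 3, so the groups overlapped (10216 nt; log2 fold change 0.26, SE 0.099, limma adjusted p = 0.195). Chd2, a relative of Chd1 tied to H3.3 deposition, was 12.5, 12.2 and 13.8 and then 15.5, 14.03 and 14.4 without overlap (9085 nt; 0.18, SE 0.060, limma adjusted p = 0.162). Chd9 (12008 nt) was 6.82, 7.27 and 7.47 in DMSO and 9.91, 8.25 and 7.48 in PFOA, and PFOA 3 exceeded DMSO 3 by only the last printed decimal. Chd6 (10515 nt) was 7.82, 7.93 and 8.17 and then 9.69, 8.43 and 8.63, and Chd4, given above, was 8.75% higher (6697 nt; log2 fold change 0.12, SE 0.047, limma adjusted p = 0.203). Chd1, Chd3 and Chd1l had log2 fold changes of 0.092, 0.080 and 0.036 with overlapping groups. Quantile normalization and scaling to the same sum left all 9 higher. Without PFOA 1 all 9 were still above 0, at a median of 0.087, with Chd1 at 0.024, Chd3 at 0.048, Chd4 at 0.079, Chd6 at 0.087 and Chd9 at 0.11.

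SWI/SNF genes lay on both sides of 0. Of 14, 8 were higher and 6 lower, 3 had an unadjusted p under 0.05, and the median log2 fold change was 0.038; scaling to the same sum made all 14 higher, and quantile normalization 11. Arid1a, the DNA-binding subunit of canonical BAF, was 69.9, 70.4 and 72.5 FPKM in DMSO and 84.9, 76.7 and 76.5 in PFOA. All PFOA libraries were above DMSO (8187 nt; log2 fold change 0.16, SE 0.047, limma adjusted p = 0.143). Smarca4, with the values given above, was 9.15% higher and also did not overlap (6376 nt; 0.12, SE 0.039, limma adjusted p = 0.152). Arid2, which marks the PBAF form, was 12.9, 12.9 and 13.97 in DMSO and 15.7, 14.7 and 13.8 in PFOA. Its PFOA 3 library lay inside the DMSO range (8507 nt; 0.14, SE 0.058, limma adjusted p = 0.217). The groups of Arid1b, the alternative to Arid1a, did not overlap, at 6.46 to 6.98 and 7.09 to 7.64, but its unadjusted p did not pass 0.05 (limma adjusted p = 0.255).

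Most core and accessory subunits of SWI/SNF lay close to no change, with Smarcd3 farthest from it at a log2 fold change of 0.18. Smarce1, an HMG-box subunit, was 36.4, 36.4 and 36.2 FPKM in DMSO and 36.0, 36.4 and 36.0 in PFOA (log2 fold change −0.0070, 95% confidence interval −0.084 to 0.070). Smarcd1, which links the core to transcription factors, was 76.2, 77.0 and 72.3 and then 76.6, 73.0 and 74.5 (−0.0084, −0.098 to 0.081). Brd9, the bromodomain subunit of the non-canonical form, was 15.6, 14.7 and 14.9 and then 15.8, 14.2 and 15.4 (0.0069, −0.11 to 0.12). Their groups overlapped, and the signs of Smarce1 and Smarcd1 turned with scaling to the same sum and with quantile normalization. Smarcb1, the tumour suppressor of the core, was 84.2 to 91.4 in DMSO and 86.3 to 89.1 in PFOA, and its interval was −0.11 to 0.078. Smarcc1 was 66.5 to 68.3 and 67.9 to 73.9, Smarcc2 11.5 to 13.7 and 11.8 to 13.3, Smarcd2 33.4 to 35.9 and 32.1 to 35.0, Smarcd3 1.36 to 1.61 and 1.56 to 2.01, and the PBAF subunit Brd7 36.3 to 37.7 and 34.5 to 37.6. The groups overlapped for each of these. In ISWI, Smarca5 had a log2 fold change of 0.045 and Smarca1 of −0.11, both with overlapping groups. With a library left out they ranged from 0.024 to 0.060 and from −0.20 to −0.0035.

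INO80 genes split by subunit. The ATPase Ino80 was 12.6, 12.0 and 12.7 FPKM in DMSO and 15.3, 13.7 and 13.5 in PFOA. Its groups did not overlap (6354 nt; 13.8% higher; log2 fold change 0.17, SE 0.058, limma adjusted p = 0.164). Ino80d, an accessory subunit with the longest transcript of any member, was 5.05, 5.06 and 5.88 and then 6.22, 5.96 and 5.67, with PFOA 3 inside the DMSO range (0.14). Ino80b, a small zinc-finger subunit and the shortest transcript among the tested members at 1503 nt, was 21.8, 20.1 and 18.9 in DMSO and 13.2, 18.2 and 18.1 in PFOA. It was the one member lower in all PFOA libraries among those tested, and PFOA 1 lay far below the others (a mean change of −18.5%; log2 fold change −0.29, SE 0.11, limma adjusted p = 0.199). Without PFOA 1 its log2 fold change was −0.15. Ino80e was 111, 107 and 104 in DMSO and 91.3, 95.01 and 111 in PFOA, where PFOA 3 was the highest of all libraries, and Ino80c was 15.8, 15.9 and 16.7 and then 13.7, 15.8 and 15.4. Their log2 fold changes were −0.12 and −0.10, moving to −0.033 and −0.022 with scaling to the same sum.

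Of the remaining remodellers, Brd8, the bromodomain subunit of the TIP60-EP400 complex, was 37.5, 35.4 and 34.4 FPKM in DMSO and 40.4, 37.8 and 38.0 in PFOA without overlap (4468 nt; log2 fold change 0.11, SE 0.046, limma adjusted p = 0.222). Smarcal1 (0.074) and Smarcad1 (−0.013) overlapped between groups, and Smarcad1 turned to 0.074 with scaling to the same sum. Among the ARID proteins outside these complexes, 5 of 5 tested were higher. Arid5b, a cofactor of the histone demethylase Phf2, was 20.96, 20.6 and 22.8 in DMSO and 26.9, 25.2 and 24.6 in PFOA. It had the smallest adjusted p of all members (7581 nt; 19.3% higher; log2 fold change 0.24, SE 0.052, limma adjusted p = 0.118). Arid3a was 9.67 to 10.2 and then 10.4 to 11.3, without overlap (0.11), and Arid3b, Arid4a and Arid4b overlapped (0.052, 0.052 and 0.086). Brd2 and Brd3, which read acetylated histones, were at log2 fold changes of 0.041 and 0.059, and Brd1, of a histone acetyltransferase complex, was at 0.020. Without PFOA 1, Arid3b was at 0.0033, Arid4a at 0.0074, Brd3 at 0.0073 and Brd1 at −0.0058. Brd2 was 118 to 121 in DMSO and 121 to 124 in PFOA, without overlap. Brd3os, whose name places it opposite Brd3, was 1.03, 1.34 and 1.40 and then 0.84, 0.98 and 1.37. Of its sequence words, 0% were shared with other genes' transcripts, and the same held for Brd3 (0%). The sources used here leave strand unstated. Reads of any overlapping gene that this comparison misses could therefore not be told from those of Brd3os.

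**Figure D3:**
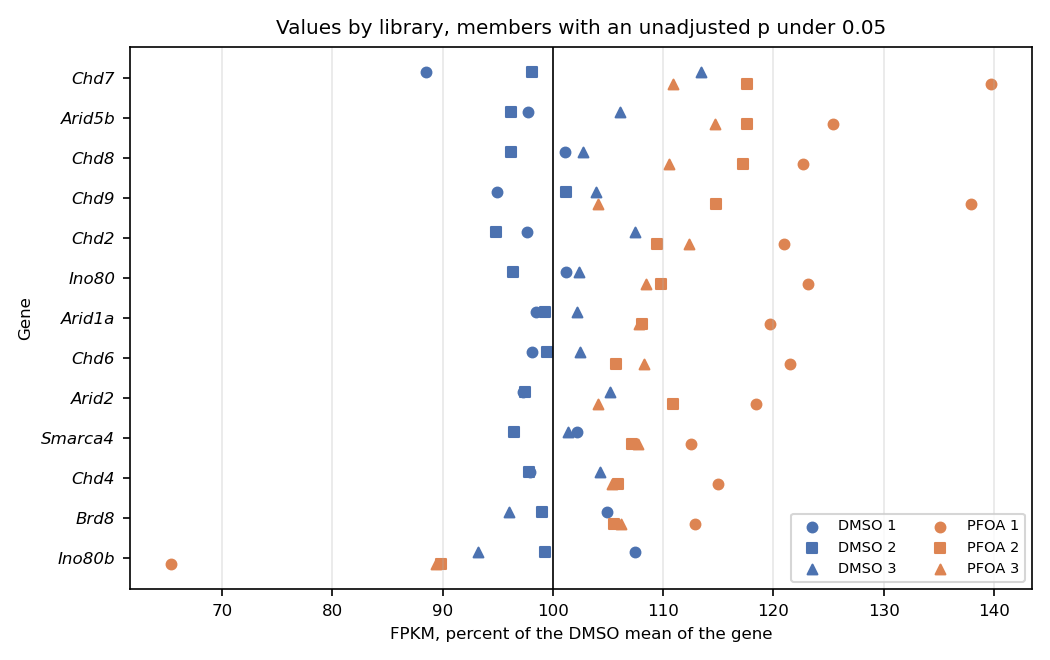
FPKM of the 13 members with an unadjusted p under 0.05, as percent of the gene's DMSO mean; points are single libraries, with 3 DMSO and 3 PFOA per gene. PFOA 1 is the highest library for all 12 members that were higher and the lowest for Ino80b.

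The libraries did not contribute evenly. PFOA 1 was the highest of the 6 libraries for 27 of the 43 tested members (62.8%), against 26.6% of all tested genes, and for all 12 members higher at an unadjusted p under 0.05. DMSO 3 was the highest DMSO library for 10 of those 12. The matching shares among all genes higher at such a p were not determined, so neither count can be called particular to the members. The members' median, relative to the DMSO mean, was 0.0028, −0.0073 and 0.0025 over the DMSO libraries on the log2 scale, and 0.13, 0.034 and 0.052 over PFOA 1 to 3. For the CHD genes it was −0.030, −0.018 and 0.038 and then 0.25, 0.083 and 0.080. For INO80 it was 0.017, −0.020 and 0.032 and then −0.22, −0.029 and 0.049. Without PFOA 1, 29 of 43 members were higher, the median was 0.033, and Smarca4, Arid1a, Chd8, Ino80, Ino80b and Arid5b kept an unadjusted p under 0.05. Without DMSO 2, Arid1a, Chd8 and Arid5b kept it. PFOA 1 also had the lowest FPKM sum, 585739, against 623160 and 630644 in the other PFOA libraries and 641975 to 657239 in DMSO. The 47 members summed to 1465 to 1480 FPKM in DMSO and 1498 to 1563 in PFOA.

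Fold changes followed transcript length. Here length is that of the longest coding transcript in GENCODE M21, found for 97.1% of tested genes. The members' median was 5361 nt, against 3048.5 nt over all tested genes, and Spearman's rho between length and log2 fold change was 0.78 over 43 members and 0.60 over 11536 genes, both across genes of the same 6 libraries. Of the 9 tested members of at least 8000 nt (Arid1a, Arid1b, Arid2, Chd2, Chd6, Chd7, Chd8, Chd9 and Ino80d), 9 were higher with a median of 0.16, as were 92.7% of all 593 such genes with a median of 0.13. From 6000 to 8000 nt it was 7 of 7 members (0.12) and 86.7% of 890 genes (0.092). Between 4000 and 6000 nt 11 of 14 members were higher (0.056), against 70.6% of genes (0.043). Between 2000 and 4000 nt 3 of 8 members were higher (−0.0077), against 43.03% of genes (−0.013). Under 2000 nt 1 of 5 members was higher (−0.12), against 17.1% of genes (−0.10). The split inside INO80 ran the same way, with Ino80 and Ino80d at 6354 and 13675 nt and Ino80b, Ino80e and Ino80c at 1503, 1973 and 2498 nt.

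**Figure D4:**
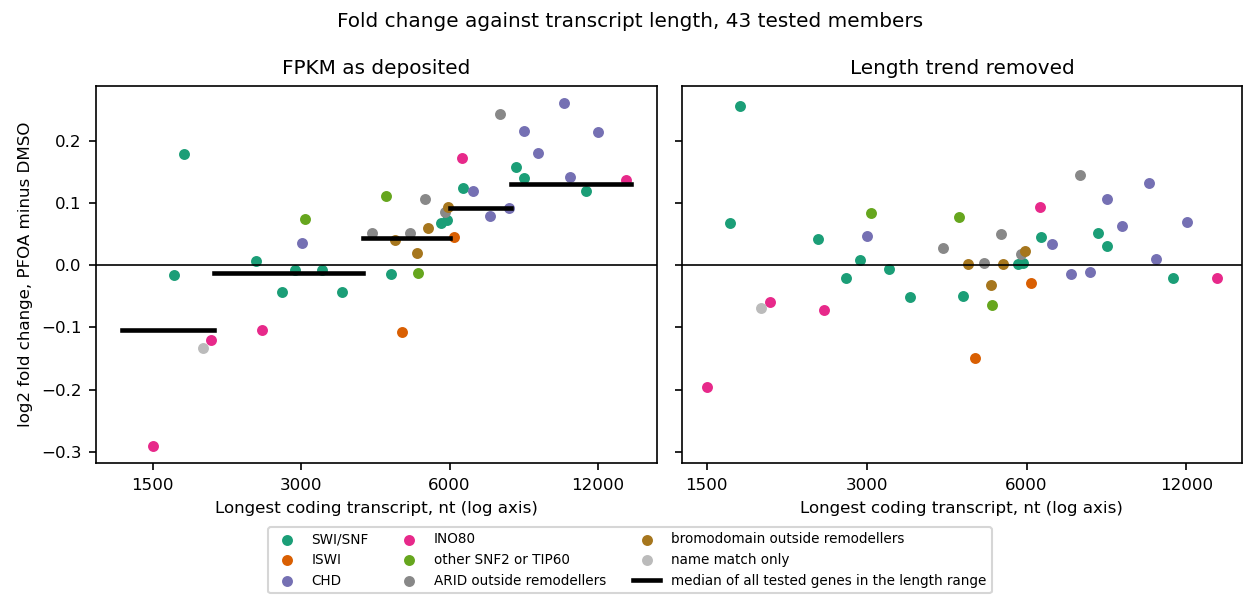
log2 fold change against the length of the longest coding transcript (log axis, nt) for the 43 tested members, as deposited (left) and with a per-library length trend removed (right); points are genes and black bars the median of all tested genes in a length range. On the left the members follow the bars, from −0.10 under 2000 nt to 0.13 from 8000 nt. On the right they scatter on both sides of 0, from −0.20 to 0.26, with a Spearman's rho to length of 0.28.

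With a smooth trend on this length removed from each library, the members' median log2 fold change went from 0.072 to 0.0081, with 27 of 43 above 0 (51% of all genes). Over the 43 members Spearman's rho between length and log2 fold change was still 0.28. Then 3 members were higher at an unadjusted p under 0.05 (6.38% of all genes) and 0 were lower (7.06%). The groups did not overlap in 5 that were higher (10.7%) and 2 that were lower (9.45%), and 0 passed the adjusted threshold in limma. Chd8 kept a log2 fold change of 0.11 (SE 0.036, limma adjusted p = 0.286) and Arid5b one of 0.15 (limma adjusted p = 0.237). Smarcd3, at 1.36 to 2.01 FPKM, was the third (0.26, limma adjusted p = 0.274). CHD genes were then higher for 7 of 9 with a median of 0.048, Chd1 and Chd3 having turned to −0.011 and −0.014. These values depend on the length used. In SWI/SNF, Arid1a was at 0.052 and Smarca4 at 0.046, and Arid1b turned to −0.020. In INO80, Ino80 stayed at 0.094 and Ino80b at −0.20, while Ino80d turned to −0.020. With the trend on the median coding transcript length removed instead, the members' median was 0.045, 29 of 43 were higher, and an unadjusted p under 0.05 was reached by 5 that were higher (11.6%, against 7.65% of all genes) and 1 that was lower (2.33%, against 8.61%). CHD genes were then higher for 9 of 9 with a median of 0.11, Chd8 at 0.20, Chd7 and Chd2 at 0.25, Chd3 at 0.062 and Chd1 at 0.045. Either removal takes out any treatment difference that runs with that length as well, so a difference of these genes and one of long transcripts cannot be told apart.

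The partner subunits outside the symbol rule were read from the same fit. Of 75 named subunits and related ATPases, 71 were tested, 37 were higher and 34 lower, and 0 passed the adjusted threshold in limma (median 0.0058). At an unadjusted p under 0.05, 16 were higher (22.5%, against 8.56% of all tested genes) and 10 lower (14.1%, against 12.5%). The other SNF2-family ATPases were higher for 12 of 12 (median 0.10), with Atrx, which deposits H3.3 in heterochromatin, at a mean FPKM of 56.8 ± 2.8 for DMSO and 66.2 ± 4.6 for PFOA (SD, n = 3 each) and the annealing helicase Zranb3 at 11.6 ± 0.075 and 12.7 ± 0.48. ISWI partners were higher for 8 of 11 (median 0.11), with the bromodomain protein Cecr2 at 10.9 ± 0.12 and 12.9 ± 0.63 and Baz2a, of the nucleolar silencing complex, at 62.3 ± 0.99 and 69.9 ± 3.3. BAF partners were higher for 3 of 12 (median −0.042), with the actin-like Actl6a at 129 ± 1.1 and 120 ± 3.5 and the PHD-finger subunit Dpf1 at 7.02 ± 0.73 and 5.98 ± 0.31. In NuRD and ChAHP 3 of 11 were higher (median −0.023), with the methyl-CpG protein Mbd3 at 103 ± 3.4 and 91.9 ± 1.2 and the NuRD subunit Gatad2b at 12.6 ± 0.32 and 14.6 ± 0.95. For INO80, SRCAP and TIP60 it was 11 of 25 (median −0.050), with the ATPase Srcap at 24.0 ± 0.80 and 28.7 ± 1.9 and the TIP60 subunit Morf4l2 at 376 ± 7.5 and 343 ± 12. Group medians of length were 5585 nt for the other ATPases, 6492 nt for ISWI, 3733.5 nt for BAF, 2826 nt for NuRD and ChAHP and 2154 nt for INO80, SRCAP and TIP60. Among the partners named, the higher Atrx, Zranb3, Cecr2, Baz2a, Gatad2b and Srcap measure 10275, 4741, 9212, 8443, 7438 and 10654 nt. The lower Actl6a, Dpf1, Mbd3 and Morf4l2 measure 2010, 2309, 1662 and 1996 nt. Actl6b, Dpf3, Bcl11a and Bcl11b, SWI/SNF subunits of neurons, muscle and lymphocytes, had means under 1 FPKM and were not tested. With the length trend removed the median was 0.0021 and an unadjusted p under 0.05 was reached by 9 that were higher (12.7%, against 6.38%) and 3 that were lower (4.23%, against 7.06%). Scaling to the same sum gave 28 (39.4%, against 21.1%) and 0 (against 4.21%), and made 8 of 12 BAF, 8 of 11 NuRD and ChAHP, and 17 of 25 INO80, SRCAP and TIP60 partners higher. Quantile normalization also made 8 of 11 NuRD and ChAHP partners higher, while the other SNF2-family ATPases were higher for 12 of 12 under both. Srcap shares 63.0% of its 50-nt words with other transcripts.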

How the data were processed

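Poly(A)-selected RNA of 6 libraries was sequenced, and the titles gave the groups. The authors deposited 1 table of FPKM per gene symbol, to 2 decimals. HISAT2 2.0.4, Bowtie2 2.2.5 and GRCm39 are named in the submitters' processing notes. The sources used here do not give their roles, the counting tool, strand use or the annotation. Low values lay within 0.15 of a whole multiple of a gene's smallest value for 31.1% of values, so reads were not recovered and the depth is unknown.

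Expression as log2(FPKM + 1) was tested where a gene's mean reached 1 FPKM, in limma 3.58.1 under R 4.3.3, fitting an intensity trend, two-sided, Benjamini-Hochberg adjusted over all 11876. The fit was tested on simulated data. Symbols were matched to GENCODE M21 without regard to case for length and shared 50-nt words, and to RefSeq for promoters. The length trend was a lowess fit with span 0.3 of each library's deviation from the gene mean. Paralogue ratios were tested by exact permutation (scipy 1.17.1). Members and lists were chosen with earlier results of these data known. Named genes are all ATPases, members with an unadjusted p under 0.05, the 3 nearest to no change and, for each partner group, the 2 with the smallest p; other members are given by range, and 1 member is counted but not reported here. Alternatives were the pseudocount, the filter, 2 scalings, the variance trend, library weights, the replicate number as a block, length trends and left-out libraries.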

Additional observations from a re-analysis of the deposited data

How the results depend on the processing

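The count of 0 members past the adjusted threshold (limma) held in each of the 19 alternatives run, with a smallest adjusted p between 0.0805 and 0.856. The number of members with an unadjusted p under 0.05 (13) became 24 with scaling to the same sum, 3 with the longest-transcript trend removed, 6 with the median-transcript trend removed, and 3 to 14 when a library was left out (3 without DMSO 2, 7 without DMSO 1 and 7 without PFOA 1). As shares, 30.2% of members and 21.1% of all genes had such a p. With scaling to the same sum the shares were 55.8% and 25.3%. They were 6.98% and 13.4% with the longest-transcript trend removed, and 14% and 16.3% with the median-transcript trend removed. They were 6.98% and 13.1% without DMSO 2, 16.3% and 13.7% without DMSO 1, and 16.3% and 14.4% without PFOA 1. In fits added after the data were seen, 10 members had such a p without DMSO 3 and PFOA 1 (23.3%, against 18.6% of all genes). Without DMSO 1 and DMSO 2 the members' median log2 fold change was 0.066. There DMSO 3, the lone control, is taken to vary as the rest do. The members' median log2 fold change (0.072) was 0.16 with scaling to the same sum, 0.0081 with the longest-transcript trend removed, 0.045 with the median-transcript trend removed and 0.033 to 0.080 with a library left out. Between 29 and 33 members were higher with a library left out. With the replicate number as a block, 8 members had an unadjusted p under 0.05 (18.6%, against 16.6% of all genes). With that block 0 members passed the adjusted threshold. Deviations of same-numbered libraries had Pearson's r across genes of −0.11, −0.0095 and −0.14, and those of other pairs −0.065 to 0.15. The labels do not say whether the numbers pair the samples, and 3 libraries a group are too few to settle it. Of the partner genes, 26 had an unadjusted p under 0.05 (36.6%, against 21.1% of all genes). With the longest- and median-transcript trends removed it was 12 (16.9%, against 13.4%) and 10 (14.1%, against 16.3%). With a library left out it ranged from 13 without DMSO 1 (18.3%, against 13.7%) to 29 without PFOA 3 (40.8%, against 20.6%). Without DMSO 2 it was 15 (21.1%, against 13.1%). The adjusted threshold was passed by 0 partner genes and, without PFOA 2, by 1, Bcl7c (log2 fold change −0.34, limma adjusted p = 0.044, from −0.20 and 0.298).

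Of 644 values of 34 named genes, 25 changed sign. No member or partner passed the adjusted threshold in the main fit, so passing genes could not be set apart. Brd9 was −0.0096 with library weights, −0.030 without DMSO 3 and PFOA 1, and −0.021 to 0.048 with a library left out. With the longest-transcript trend removed Chd1 was −0.011, Chd3 −0.014, Smarca5 −0.028 (−0.045 with the median-transcript trend) and Smarce1 0.0081. Smarcad1, Smarcd1 and Smarce1 were 0.048, 0.038 and 0.024 with quantile normalization and 0.074, 0.079 and 0.079 with scaling to the same sum. Smarcad1 and Smarcd1 were 0.056 and 0.060 with the median-transcript trend removed and 0.041 and 0.046 without DMSO 1 and DMSO 2. With a library left out, Smarcad1 was −0.040 to 0.010 and Smarcd1 −0.035 to 0.0091. None of the 56 alternative paralogue ratios changed sign. The cause of these changes was not tested. The half-width of 0.12 is about where a typical member reaches an unadjusted p of 0.05 in limma, not the adjusted threshold. Larger differences, such as 0.24 for Arid5b, did not pass the adjusted threshold. With 3 libraries a group and no known depth, the smallest difference that could pass it was not determined.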
